A study of Rattus norvegicus with 22 samples.

Results

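Transcripts of 76 rat genes of cilium and flagellum proteins were followed in male germ cells, out of 26903 genes or file names on the array, of which 15154 had a RefSeq symbol. Members were chosen by symbol alone: probes whose accession mapped to a symbol that begins with Dnah, Dnai or Dnal (axonemal dynein chains), Dnaaf (dynein assembly factors), Cfap (cilia and flagella associated proteins), Ift (intraflagellar transport), Bbs (Bardet-Biedl syndrome proteins), Rsph (radial spoke heads) or Spag followed by a digit (sperm associated antigens). They lay on 81 probes, and the brightest probe stood for the 5 genes that had 2 of them. The name rule took in some genes that are not known as axonemal: Spag5 is a mitotic spindle protein, Spag9 a signalling scaffold and Spag11a a defensin-like epididymal gene. It also took in a single dynein heavy chain, Dnah1.

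The 22 one-colour arrays came from male rats and formed 4 groups: round spermatids after cyclophosphamide (6 arrays) or saline (6 arrays), and pachytene spermatocytes after cyclophosphamide (5 arrays) or saline (5 arrays). Of the cyclophosphamide pachytene arrays 2 carry the same rat number with different years in their labels. Cyclophosphamide, an alkylating anticancer drug, was given by gavage at 6 mg/kg on 6 days per week for 4 weeks. The strain and the age of the rats are not given in the sources used here, and none of the labels names an altered gene. The cells were fractions obtained by sedimentation at unit gravity (STA-PUT), so that a fraction can hold other cells, and for any transcript fewer cells of a type and less RNA per cell cannot be told apart.

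The axoneme, the core of a motile cilium or sperm tail, is a ring of doublet microtubules around a central pair. Dynein arms slide the doublets, radial spokes and the central pair set when they act, and small proteins inside the doublet wall, the microtubule inner proteins, hold it together. Dynein arms are folded in the cytoplasm by assembly factors, intraflagellar transport trains carry parts along the growing axoneme, and the BBSome sorts membrane cargo. In male germ cells pachytene spermatocytes are in the long meiotic prophase, and round spermatids are the haploid cells in which the tail begins to grow. Many tail transcripts are known to be made before the tail is.

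The promoters of 4 members are shown. Spag6 and Spag6l, close relatives that encode central pair proteins, differed between the cell types in opposite directions. Cfap298 and Cfap20dc were the members whose window held the whole motif GTTGCCNNGGCAAC. The windows are from RefSeq on GRCr8 and run from 250 bases before to 50 bases after the annotated start, written 5′ to 3′ on the gene's strand. Capitals mark GTTGCC or its reverse complement GGCAAC, the X-box half-site of the RFX factors that act on cilium genes, and TGACGTCA, the palindromic CRE bound by CREM in spermatids. The Spag6 window lies at chr17:86261825-86262124, plus strand, that of Spag6l at chr11:97677590-97677889, plus strand, that of Cfap298 at chr11:43677333-43677632, minus strand, and that of Cfap20dc at chr15:18661312-18661611, plus strand.
Spag6 promoter: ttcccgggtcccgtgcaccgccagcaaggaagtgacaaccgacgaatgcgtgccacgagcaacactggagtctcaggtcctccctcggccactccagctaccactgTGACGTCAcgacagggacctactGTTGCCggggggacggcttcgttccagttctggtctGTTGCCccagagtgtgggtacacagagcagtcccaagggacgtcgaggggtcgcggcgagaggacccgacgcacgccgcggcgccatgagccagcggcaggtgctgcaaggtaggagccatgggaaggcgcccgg
Spag6l promoter: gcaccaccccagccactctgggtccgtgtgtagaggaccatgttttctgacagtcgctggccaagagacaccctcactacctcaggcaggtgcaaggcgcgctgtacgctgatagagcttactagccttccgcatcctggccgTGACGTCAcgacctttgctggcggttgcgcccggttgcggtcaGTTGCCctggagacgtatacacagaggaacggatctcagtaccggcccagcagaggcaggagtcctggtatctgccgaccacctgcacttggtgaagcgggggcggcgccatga
Cfap298 promoter: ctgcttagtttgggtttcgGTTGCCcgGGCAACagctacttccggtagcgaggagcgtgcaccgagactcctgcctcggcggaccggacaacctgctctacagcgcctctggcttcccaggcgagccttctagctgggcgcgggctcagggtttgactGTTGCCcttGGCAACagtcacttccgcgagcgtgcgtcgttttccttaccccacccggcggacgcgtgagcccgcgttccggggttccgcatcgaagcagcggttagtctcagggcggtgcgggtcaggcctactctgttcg
Cfap20dc promoter: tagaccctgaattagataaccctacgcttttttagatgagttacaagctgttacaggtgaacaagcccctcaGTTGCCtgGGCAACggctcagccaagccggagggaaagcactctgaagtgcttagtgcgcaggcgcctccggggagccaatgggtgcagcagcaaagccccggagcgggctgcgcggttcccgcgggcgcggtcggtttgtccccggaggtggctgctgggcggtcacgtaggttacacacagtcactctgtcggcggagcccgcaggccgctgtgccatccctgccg
In Spag6 the CRE began at base -144 from the start and half-sites at -121 and -85, and in Spag6l the CRE began at -107 and a half-site at -64.

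A window was found for 60 of the 76 members. The half-site, sought on both strands as GTTGCC or GGCAAC, stood in 21 of these windows (35.0%), against 12.2% of all 27457 rat promoters in the table and 12.2% of the 12384 promoters of genes on the array. Members with higher transcripts in round spermatids of both treatments held it in 7 of 22 windows (31.8%), and those lower in both treatments in 7 of 21 (33.3%). Cfap20dc is among the 22, with its direction set by its entry to the tests through round spermatid arrays alone. The whole motif GTTGCCNNGGCAAC, searched after the half-sites had been seen and made of 2 of them, stood in 2 of the 60 windows (3.33%), against 0.127% of all promoters. TGACGTCA stood in 2 windows as well (3.33%), those of Spag6 and Spag6l, against 1.91% of all promoters and 2.57% of those of genes on the array. These matches describe the letters of the windows, and binding was not measured.

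Between 65.3% and 76.4% of an array's probes stood well above background, none had saturated spots, and the 75th percentile of the signal ranged over 1069.5 to 2423.3 intensity units. The correlation between arrays of the same group was 0.9814 to 0.9914. A level below is the log2 of a probe's signal minus that array's 75th percentile. All 15 round spermatid markers were higher in round spermatids than in pachytene spermatocytes of saline rats, while of 12 pachytene markers 7 were lower and 3 higher. The summed linear level of the 15 round spermatid markers was 676 to 1100 on cyclophosphamide and 661 to 1030 on saline round spermatid arrays, and 174 to 342 on cyclophosphamide and 187 to 444 on saline pachytene arrays. The sums of the 12 pachytene markers overlapped between cell types. They were 190 to 275 on cyclophosphamide and 202 to 273 on saline round spermatid arrays, and 255 to 311 and 233 to 310 on the pachytene arrays. Their median level was 0.69 to 1.22 on round spermatid arrays and 2.68 to 3.37 on pachytene arrays, without overlap. Genes of other cell types were measured on both kinds of array. Those of Sertoli cells were mostly lower in round spermatids of saline rats (7 of 9 lower, 1 higher), with summed levels of 1.79 to 5.87 on round spermatid arrays and 19.2 to 33.8 on pachytene arrays. All 5 tested Leydig cell genes were lower, with sums of 1.71 to 4.19 on round spermatid arrays and 5.17 to 11.4 on pachytene arrays, and Lhcgr, the sixth of that list, was well above background on no array. All 7 tested macrophage genes were higher, with sums over 8 genes of 3.27 to 9.45 on round spermatid arrays and 0.415 to 1.06 on pachytene arrays. On the pachytene arrays 6 of these macrophage genes were well above background throughout and Ptprc on none. All 4 tested peritubular myoid genes (sums of 3.2 to 5.78 on round spermatid arrays and 1.1 to 2.19 on pachytene arrays) and 4 of 5 spermatogonial genes (9.82 to 14.1 and 4.58 to 8.21) were higher as well. The part of these other cells in the differences between cell types was not tested.

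Of the 76 members, 75 were well above background on all 12 round spermatid arrays. On the pachytene arrays Cfap20dc and Spag11a were well above background on none, and Dnaaf6 missed on 1 array of cyclophosphamide rats. Spag11a, measured on 2 of 6 cyclophosphamide and 4 of 6 saline round spermatid arrays, entered no test.

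The first comparison asked how these transcripts differ between the cell types, in saline rats. Of 75 members tested, 30 were higher and 27 lower in round spermatids than in pachytene spermatocytes, and 18 did not pass (limma, adjusted p under 0.05 over 19422 genes). Such differences were common: 38.3% of all tested genes were higher and 37.0% lower, 75.3% in all, so the share of members that passed (57 of 75) was close to that of the array. Their median log2 difference was -0.02, against 0.01 over all genes. Cfap20dc entered the test through its round spermatid arrays alone, which sets its direction as higher but not whether it passes. Of the 74 members well above background on every array of both groups 29 were higher and 27 lower. Differences of more than 4-fold were found in 10 members that were higher and 6 that were lower. Their share was close to that of the array, where 19.0% of all genes passed with more than 4-fold in either direction. In 44 members the 6 round spermatid and 5 pachytene arrays did not overlap, 24 higher and 20 lower, against 57.1% of all genes. After quantile normalization the counts became 26 higher and 36 lower, while of all 19422 genes 7033 were higher and 7906 lower. The median of all genes was then -0.087 and that of the members -0.21, so the balance of directions rests on the scaling. No called member changed its sign there.

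**Figure D1:**
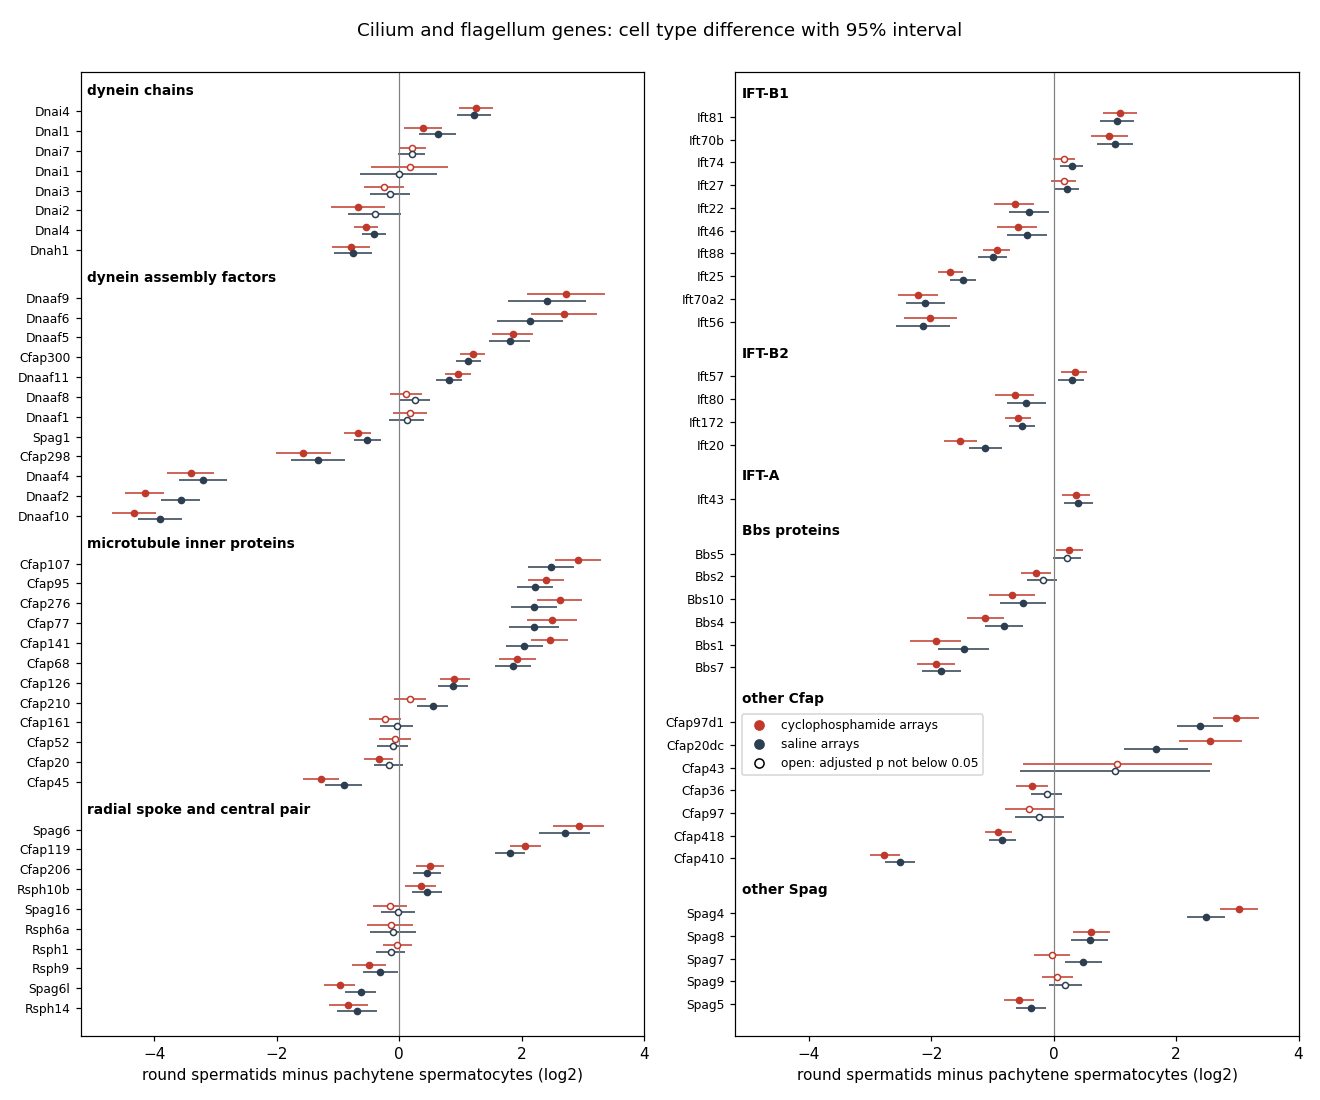
Each row is 1 member, grouped by role, and the x axis is the log2 difference of round spermatids minus pachytene spermatocytes with its 95% interval, for cyclophosphamide arrays (red) and saline arrays (dark). Open points did not pass. The assembly factors run from -3.91 to 2.42 on the saline arrays, and most microtubule inner proteins lie right of 0.

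Counts by role were made after the values had been seen, in small groups and without a test. Of all tested genes 38.3% were higher and 37.0% lower. Microtubule inner proteins were 8 higher, 1 lower and 3 not passed of 12, with a median of 1.37. Dynein assembly factors were 5 higher and 5 lower of 12, and radial spoke and central pair proteins 4 higher and 3 lower of 10. Both were near the shares of all genes. The transport proteins of the IFT-B1 core were 4 higher and 6 lower of 10, those of IFT-B2 1 higher and 3 lower of 4, and of 6 Bbs proteins 4 were lower and none higher. After quantile normalization the microtubule inner proteins were 8 higher and 4 lower, and the Bbs proteins 0 higher and 5 lower.

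**Figure D2:**
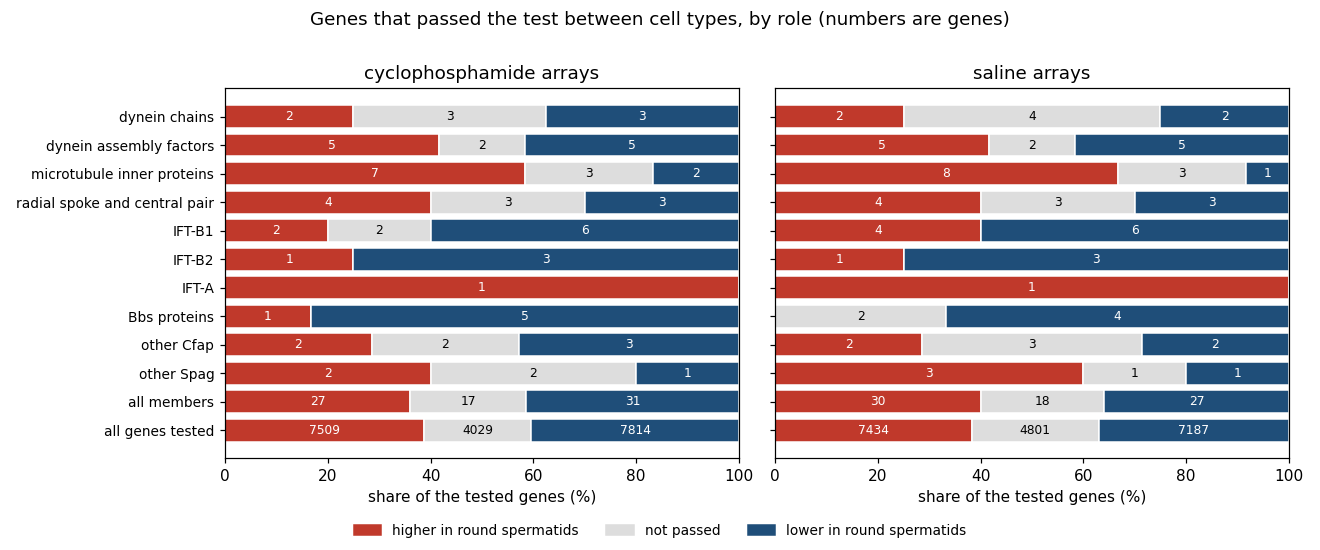
Stacked bars give the share (%) of tested genes in each role that were higher (red), not passed (grey) or lower (blue) in round spermatids, with the number of genes in each segment, for cyclophosphamide and saline arrays. All members and all tested genes are the bottom bars, and the microtubule inner proteins have 8 of 12 genes higher on the saline arrays.

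Among the dynein chains 2 of 8 were higher, 2 lower and 4 did not pass. Dnah1, an inner arm heavy chain, had levels of 0.02, 0.17 and 0.39 (lowest, median and highest) on the saline round spermatid arrays, against 1.01, 0.78, 0.89, 1.38 and 0.79 on the saline pachytene arrays. All 6 round spermatid arrays lay below all 5 pachytene arrays. The transcript was 1.70-fold lower in round spermatids (log2 difference -0.76 ± 0.15, SE; adjusted p = 7.99e-05). Dnai4, an inner arm intermediate chain, had 1.56, 1.96 and 2.11 in round spermatids, against 0.93, 0.46, 0.31, 1.0 and 0.70 in pachytene spermatocytes. The arrays again did not overlap, here with round spermatids above, by 2.33-fold (1.22 ± 0.14; adjusted p = 3.08e-08). Dnal4, a light chain, had 2.81, 3.05 and 3.1 in round spermatids, against 3.56, 3.22, 3.52, 3.45 and 3.30 in pachytene spermatocytes. Its fall was small, 1.34-fold (-0.42 ± 0.09; adjusted p = 3.51e-04), but the arrays did not overlap. Dnal1, the light chain of the outer arm, was 0.63 ± 0.15 higher. The outer arm intermediate chains Dnai1 (-0.01 ± 0.30) and Dnai2 (-0.40 ± 0.21), as well as Dnai3 and Dnai7, did not pass.

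The dynein assembly factors held the widest range of any role. Dnaaf10 (WDR92), a co-chaperone cofactor, had levels of -4.05, -3.73 and -3.21 on the saline round spermatid arrays, against 0.04, 0.67, 0.49, -0.44 and 0.12 on the pachytene arrays. Each round spermatid array lay more than 2 log2 units below each pachytene array. It was 15.0-fold lower (-3.91 ± 0.17; adjusted p = 3.16e-14), or -3.26 on the log2 scale with normexp background correction. Dnaaf2 (kintoun) and Dnaaf4 (DYX1C1), co-chaperones of the same folding path, were 11.9-fold and 9.26-fold lower (-3.57 ± 0.15 and -3.21 ± 0.19). Cfap298 fell by 1.33 and Spag1, another co-chaperone, by 0.52. Dnaaf9, related to the Tetrahymena factor that packs outer arms for transport, had -0.41, -0.06 and 0.68 in round spermatids, against -1.46, -2.64, -3.12, -3.12 and -1.70 in pachytene spermatocytes. No arrays overlapped, although the pachytene arrays themselves were spread over more than 1 log2 unit. It was 5.34-fold higher (2.42 ± 0.31; adjusted p = 2.37e-07), with a log2 difference of 1.25 within slide 1 and 3.34 within slide 2. Dnaaf6 (PIH1D3), which has the PIH domain that Dnaaf2 also carries, was 4.37-fold higher (2.13 ± 0.26), opposite to Dnaaf2. Dnaaf5 (1.81 ± 0.16), Cfap300 (1.13 ± 0.10) and Dnaaf11 (0.81 ± 0.10) were higher too. Dnaaf1 (0.12 ± 0.14) and Dnaaf8 (0.25 ± 0.12) did not pass.

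Among the microtubule inner proteins Cfap107 changed most. Its levels were 2.21, 2.39 and 2.76 on the saline round spermatid arrays, against -0.13, 0.83, -0.09, -0.73 and -0.04 on the pachytene arrays. One pachytene array, that of rat 16, stood above its group and still lay below every round spermatid array. Cfap107 was 5.59-fold higher (2.48 ± 0.18; adjusted p = 4.95e-11), and leaving out each array in turn gave log2 differences of 2.31 to 2.70. Cfap95, Cfap77, Cfap276, Cfap141 and Cfap68, which also sit in the doublet wall, were higher by 1.86 to 2.22. Cfap126 (0.88 ± 0.12) and Cfap210 (0.55 ± 0.12) rose less. Cfap45, which lies in the same wall, was the only one that fell, by 0.91. Cfap20 (-0.17 ± 0.11), Cfap52 (-0.11 ± 0.12) and Cfap161 (-0.04 ± 0.13) did not pass. Cfap68 had another probe, near background at levels of -7.46 in round spermatids and -7.26 in pachytene spermatocytes, with a difference of -0.19.

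The 5 Rsph members had log2 differences from -0.69 to 0.45. Rsph10b had levels of 4.74, 4.90 and 5.06 on saline round spermatid arrays, against 4.64, 4.30, 4.18, 4.76 and 4.33 on pachytene arrays. The lowest round spermatid array and the highest pachytene array overlapped. It was 1.37-fold higher (0.45 ± 0.12; adjusted p = 0.00192). Rsph14 had -0.88, -0.79 and -0.44 in round spermatids, against 0.21, -0.43, -0.46, 0.47 and -0.06 in pachytene spermatocytes, with the highest round spermatid array among the lowest pachytene arrays. It was 1.62-fold lower (-0.69 ± 0.15; adjusted p = 3.20e-04). Rsph9 fell by 0.31, a call lost with the slide as a block (adjusted p = 0.161), and the head proteins Rsph1 (-0.14 ± 0.11) and Rsph6a (-0.11 ± 0.18) did not pass. Cfap206, at the spoke base, was 0.45 ± 0.11 higher, and Cfap119, needed for the mouse sperm tail, was 1.81 ± 0.12 higher.

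The central pair genes included the pair with opposite differences. Spag6 had levels of 2.26, 2.38 and 2.48 on the saline round spermatid arrays, against -0.30, 0.63, -0.18, -1.25 and -0.49 on the pachytene arrays. The round spermatid arrays were close together and far above the scattered pachytene arrays. Spag6 was 6.50-fold higher (2.70 ± 0.20; adjusted p = 5.90e-11). Spag6l, its close relative, had 4.61, 4.80 and 4.89 in round spermatids, against 5.63, 4.95, 5.35, 5.75 and 5.38 in pachytene spermatocytes. No arrays overlapped, and Spag6l was 1.55-fold lower (-0.63 ± 0.12; adjusted p = 7.36e-05). Another Spag6l probe gave -0.02, so the fall rests on 1 of its 2 probes. Whether the probes of these related genes share transcripts was not tested. Spag16, a further central pair protein, did not pass (-0.02 ± 0.13).

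**Figure D3:**
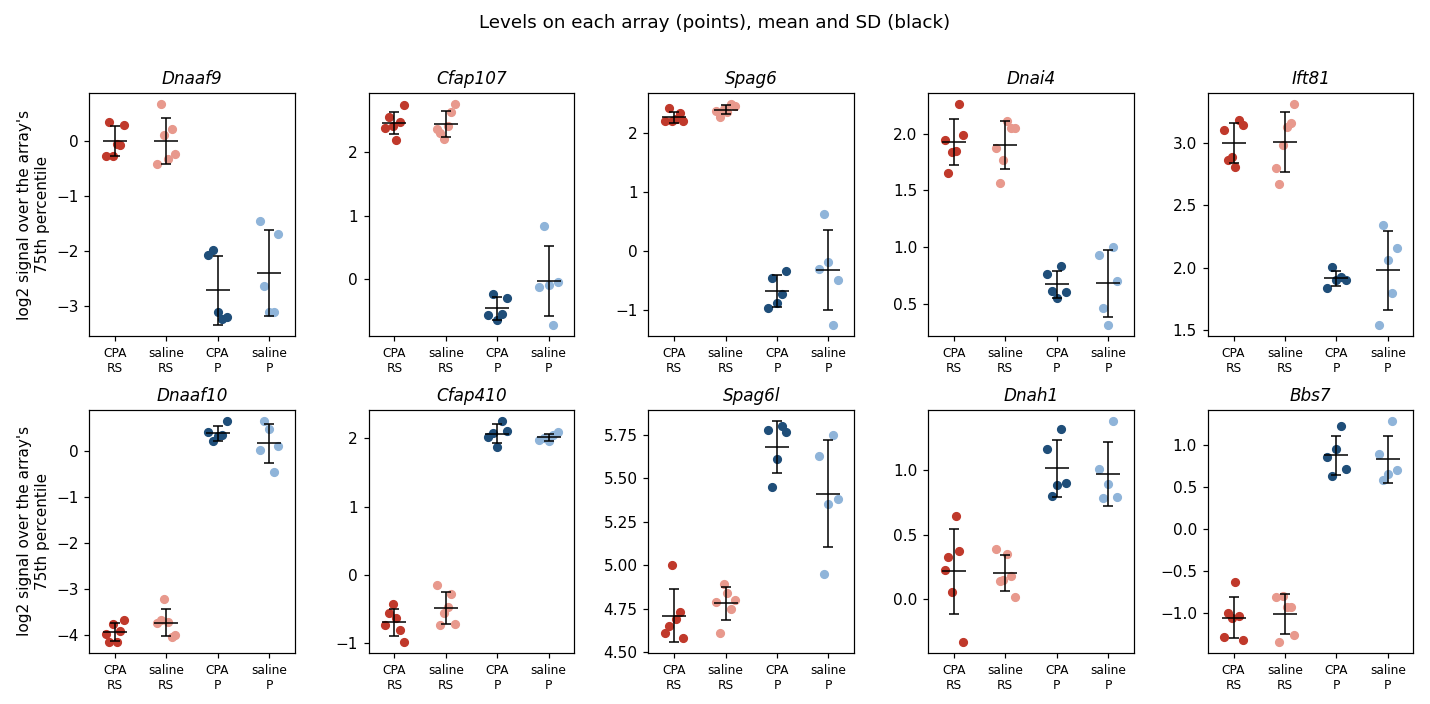
Points are the arrays of 10 members, with group mean and SD in black, in cyclophosphamide (CPA) and saline round spermatids (RS) and pachytene spermatocytes (P). The y axis is the log2 signal minus the array's 75th percentile, with its own range in each panel. The upper row holds members higher in round spermatids, such as Spag6 at 2.26 to 2.48 on the saline arrays, and the lower row members lower there.

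All 10 IFT-B1 members passed in saline rats, in both directions. With the slide as a block 3 were higher and 4 lower, without Ift27, Ift46 and Ift22, and after quantile normalization Ift27 and Ift74 did not pass. Ift81, which with Ift74 carries tubulin, had levels of 2.67, 3.05 and 3.31 on round spermatid arrays, against 1.54, 2.34, 2.06, 1.80 and 2.16 on pachytene arrays. Every round spermatid array was above every pachytene array, and the difference was 2.04-fold (1.03 ± 0.13; adjusted p = 3.80e-07). Ift56 (TTC26), a peripheral subunit of the same complex, had -4.61, -3.87 and -3.50, against -2.09, -1.44, -1.64, -1.75 and -1.97. Here the round spermatid arrays lay below all pachytene arrays, by 4.39-fold (-2.13 ± 0.21; adjusted p = 4.51e-09), with -1.54 within slide 1. Ift88 fell by 1.0 and Ift25 by 1.48, while its binding partner Ift27 was 0.22 ± 0.10 higher (adjusted p = 0.0494). Ift74 was 0.29 ± 0.09 higher. Ift46 and Ift22 fell by 0.44 and 0.41. The TTC30 relatives Ift70b and Ift70a2 differed in opposite directions, 1.0 ± 0.15 and -2.10 ± 0.16, and sharing of transcripts between their probes was not tested.

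In IFT-B2 the subunit that moves cargo from the Golgi, Ift20, had levels of -1.35, -1.11 and -1.06 on saline round spermatid arrays, against -0.21, -0.28, 0.33, -0.04 and -0.07 on pachytene arrays. The groups were apart on every array, and Ift20 was 2.17-fold lower (-1.12 ± 0.13; adjusted p = 7.18e-08). Ift172 and Ift80 fell by 0.52 and 0.45, and Ift57 was 0.29 ± 0.10 higher. Ift43, the IFT-A subunit among the members, was 0.40 ± 0.11 higher.

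In saline rats BBSome genes were lower where they passed. Bbs7 had levels of -1.34, -0.93 and -0.79 on saline round spermatid arrays, against 0.90, 0.59, 0.66, 1.29 and 0.71 on pachytene arrays. Each round spermatid array was below 0 and each pachytene array above it, a difference of 3.58-fold (-1.84 ± 0.15; adjusted p = 2.87e-10). Bbs1 and Bbs4, also BBSome subunits, fell by 1.47 and 0.81, and their other probes gave -0.99 and -0.52. The chaperonin-like Bbs10 fell by 0.51. Bbs2 (-0.18 ± 0.12) and Bbs5 (0.21 ± 0.11) did not pass.

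Of the remaining members, Cfap410 (C21orf2), a protein of the base of the cilium, had levels of -0.74, -0.52 and -0.16 on saline round spermatid arrays, against 1.98, 2.0, 1.96, 2.05 and 2.09 on pachytene arrays. The pachytene arrays were within a narrow band and far above the others. Cfap410 was 5.69-fold lower (-2.51 ± 0.12; adjusted p = 8.07e-14). Cfap418, a photoreceptor disease gene, fell by 0.84. Cfap97d1, which the mouse sperm tail needs, was 2.39 ± 0.18 higher. Cfap20dc, well above background on all round spermatid arrays and on no pachytene array, was at least 2.19-fold higher, a bound from the lowest signal measured above background that is given as a description, since the filter on dim probes let it in only where it is high. With normexp background correction it did not pass. Spag4, a SUN domain protein of the nuclear envelope that couples the sperm head to the tail, was 5.60-fold higher (2.48 ± 0.15; adjusted p = 3.11e-12). Spag7 (0.48 ± 0.14) and the sperm tail protein Spag8 (0.59 ± 0.15) were higher, Spag5 fell by 0.37, and Spag9 (0.19 ± 0.13) did not pass. Cfap43, a sperm tail gene, was too variable to place, at 1.0 ± 0.75 with saline pachytene arrays from -5.41 to -0.86. Cfap36 (-0.11 ± 0.12) and Cfap97 (-0.24 ± 0.20) did not pass.

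Slides limited this comparison, since all round spermatid arrays were on slides 1 and 2 and the pachytene arrays on 4 slides. With the slide as a block 31 members were higher and 21 lower, against 36.9% and 35.7% of all genes. Of the 57 calls 50 were kept, and Ift27, Ift46, Ift22, Rsph9, Ift80, Spag5 and Bbs10 no longer passed. Within slide 1 the counts were 19 and 21 (28.6% and 27.2% of all genes), and within slide 2 25 and 17 (31.5% and 28.7%), each from 3 round spermatid arrays and 1 pachytene array of saline rats. The spread in these fits came from the round spermatid arrays of the slide, and the lone pachytene array of a treatment was assumed to vary like them. They kept 39 of the 57 calls within slide 1 and 41 within slide 2. Of the members given array by array in this comparison, Rsph10b was among those not kept within slide 1, and Dnah1, Dnal4 and Rsph14 were among those not kept within slide 2. Leaving out each array in turn kept 54 to 57 of the 57 calls.

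The same question was asked in the cyclophosphamide rats. Both comparisons came from 1 fit to all 22 arrays, which share the estimate of the spread. Fits of each treatment's arrays alone gave 26 members higher and 31 lower in cyclophosphamide rats, against 7690 and 7940 of 19352 genes. In saline rats they gave 29 and 25, against 7182 and 6936 of 19422 genes. Of 75 members 27 were higher and 31 lower in round spermatids, and 17 did not pass, against 38.8% of 19352 genes higher and 40.4% lower (79.2% in all). Cfap20dc again entered the test through its round spermatid arrays alone, which sets its direction as higher. Of the 73 members well above background on every array of both groups 25 were higher and 31 lower. Over both treatments 26 members were higher in both, Cfap20dc among them, 27 lower in both and none passed in opposite directions. Among all genes 72.4% passed in the same direction in both, against 53 of 75 members. The groups did not overlap in 51 members (67.1% of all genes). The log2 difference was larger in size in the cyclophosphamide rats for 61 of 75 members, and the same held for 76.9% of all genes. The median was -0.03, against -0.02 over all genes.

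The largest differences recurred. Dnaaf10 had levels of -4.15, -3.95 and -3.68 on the cyclophosphamide round spermatid arrays, against 0.42, 0.22, 0.33, 0.37 and 0.66 on the cyclophosphamide pachytene arrays. As in saline rats the groups were far apart, and it was 20.2-fold lower (-4.34 ± 0.17; adjusted p = 3.86e-15). Dnaaf2 had -3.87, -3.24 and -2.96, against 0.90, 0.76, 0.78, 0.81 and 1.05. The pachytene arrays differed by less than 0.3 among themselves, and Dnaaf2 was 17.9-fold lower (-4.16 ± 0.15; adjusted p = 1.07e-15). Cfap107 had 2.20, 2.45 and 2.74, against -0.57, -0.24, -0.65, -0.55 and -0.30. All pachytene arrays were below 0, and Cfap107 was 7.58-fold higher (2.92 ± 0.18; adjusted p = 1.98e-12).

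Spag6 had levels of 2.19, 2.21 and 2.42 on the cyclophosphamide round spermatid arrays, against -0.96, -0.46, -0.87, -0.72 and -0.34 on the pachytene arrays. Its 7.62-fold rise (2.93 ± 0.20; adjusted p = 8.80e-12) stood beside a fall of Spag6l, which had 4.58, 4.67 and 5.0, against 5.78, 5.45, 5.61, 5.80 and 5.77. No arrays of Spag6l overlapped, and it was 1.96-fold lower (-0.97 ± 0.12; adjusted p = 1.72e-07), while its other probe gave -0.10. Cfap410 had -0.99, -0.69 and -0.43, against 2.02, 2.08, 1.87, 2.26 and 2.11. That was 6.81-fold lower (-2.77 ± 0.12; adjusted p = 9.63e-15), again with groups far apart. Dnaaf9 was 6.63-fold, Spag4 8.18-fold and Dnai4 2.38-fold higher, and Ift56 was 4.04-fold, Bbs7 3.80-fold and Dnah1 1.73-fold lower. Cfap20dc was at least 2.14-fold higher, again only a description, since it entered the test through its round spermatid arrays alone.

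Members that passed in saline rats alone were Cfap210 (0.18 ± 0.12 in cyclophosphamide rats), Ift27, Ift74 and Spag7 (-0.03 ± 0.14). Those that passed in cyclophosphamide rats alone were Bbs5, which was higher, and Dnai2, Cfap20, Bbs2 and Cfap36, which were lower. Passing in one treatment and not in the other does not show a difference between them, which the test of the difference addresses below. With the slide as a block 54 of the 58 calls were kept, and Bbs5, Bbs2, Cfap36 and Dnal1 did not pass. The counts were then 27 higher and 29 lower (38.4% and 39.0% of all genes). Within slide 1 27 members were higher and 20 lower (33.3% and 31.0% of all genes), and within slide 2 22 and 20 (32.1% and 32.3%), where Bbs5 turned its sign.

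Other genes of the same machinery were taken from lists of the axoneme, of transport and of transcription factors. Only the transport list was about as evenly split between the directions as the members. Of 39 further axoneme genes on the array 20 were higher and 10 lower in saline round spermatids, against 38.3% and 37.0% of all genes, with a median of 0.23. The tektins, filaments of the doublet wall, were among the higher ones: Tekt5 by 2.37 ± 0.17, Tekt2 by 1.32 ± 0.12, Tekt3 by 1.02 ± 0.11 and Tekt4 by 0.96 ± 0.14. The microtubule inner protein Pierce1 was 5.86-fold higher. The assembly factors Zmynd10 and Ruvbl2 fell by 1.68 and 1.46, and Ruvbl1, the partner of Ruvbl2, did not pass (-0.10 ± 0.15). Of 20 transport genes 9 were higher and 8 lower. Dync2h1, the motor heavy chain of retrograde transport, fell by 1.41, and the IFT-A subunits Wdr19 (1.05 ± 0.14) and Wdr35 (0.71 ± 0.11) were higher while Ttc21b fell by 0.79. Of 5 transcription factors 4 were higher: Rfx1 by 2.82 ± 0.20, Foxj1 by 2.41 ± 0.18, Crem by 1.11 ± 0.11 and Rfx2 by 0.43 ± 0.13. In cyclophosphamide rats the counts were 20 higher and 11 lower, 9 and 9, and 4 and 1, against 38.8% and 40.4% of all genes. No gene of these lists passed for treatment.

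The study's own question was the effect of chronic cyclophosphamide. In pachytene spermatocytes 0 of 74 members passed, as did 0.0% of the 18470 genes tested, with a smallest adjusted p of any gene of 0.681 (limma). At an unadjusted p under 0.05 there were 6 members, 3 higher and 3 lower, against 7.29% of all genes. The members' median was 0.055, against 0.034 over all genes, with 51 above 0 and 23 below (57.1% of all genes were above 0). For 57 of 74 members the 95% interval of the difference lay within 1.5-fold in either direction, and for 72 within 2-fold, against 62.0% and 93.4% of all genes. The exceptions to 2-fold were Cfap43 (0.91 ± 0.78, interval -0.70 to 2.53) and Dnaaf6 (-0.57 ± 0.27, interval -1.13 to -0.01). All 6 Bbs proteins were above 0 (0.05 to 0.20), as were 12 of 15 Ift proteins, while of the microtubule inner proteins 5 were above and 7 below.

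Spag7 had the smallest p among members there. Its levels were 4.42, 3.92, 4.12, 4.27 and 4.34 on the cyclophosphamide pachytene arrays, against 3.93, 3.83, 4.10, 3.72 and 3.28 on the saline ones. Most treated arrays were above most saline arrays, with overlap, and the difference was 0.44 ± 0.15 (adjusted p = 0.681; unadjusted 0.00634). By slide it was -0.01, 0.24, 0.99 and 0.50 on slides 1 to 4. Ift20 had 0.43, 0.00, 0.31, 0.13 and 0.60, against -0.21, -0.28, 0.33, -0.04 and -0.07. One saline array lay among the treated ones, and the difference was 0.35 ± 0.14 (adjusted p = 0.681). Spag4 had 1.42, 1.75, 1.51, 1.16 and 1.36, against 2.01, 2.35, 1.65, 1.32 and 1.75. The saline arrays of rats 13 and 16 were highest, the groups overlapped, and the difference was -0.38 ± 0.16 (adjusted p = 0.681). Without saline rat 16 it was -0.24. Spag6l (0.27 ± 0.13), Cfap107 (-0.43 ± 0.19) and Dnaaf6 were the other members at that unadjusted level.

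Round spermatid markers moved beside these values. All 15 were below 0 in cyclophosphamide against saline pachytene arrays, with a median of -0.45 and none passing, and their summed level was 241, 342, 191, 174 and 239 on the treated arrays, against 444, 370, 292, 187 and 262 on the saline ones. Saline rats 13 and 16, the arrays with the highest Spag4, had the highest sums. The 7 tested macrophage markers (median -0.30) and the 4 tested peritubular myoid markers (median -0.25) were also below 0. The part of round spermatids, macrophages or myoid cells in the treatment differences was not tested.

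In round spermatids 0 of 75 members passed for treatment (0.0% of 18864 genes; smallest adjusted p of any gene 0.959), and 1 did so at an unadjusted p under 0.05, against 3.32% of all genes. The median was -0.016, against -0.01 over all genes. The interval lay within 1.5-fold for 69 members and within 2-fold for 74, against 74.1% and 95.7% of all genes. Dnaaf2, the member at the unadjusted level, had levels of -3.87, -3.24 and -2.96 on the cyclophosphamide arrays, against -3.23, -2.99 and -2.50 on the saline arrays. The treated arrays tended lower and overlapped with the saline arrays, with a difference of -0.37 ± 0.14 (interval -0.67 to -0.07; adjusted p = 1.0; unadjusted 0.017). Cfap410 had -0.99, -0.69 and -0.43, against -0.74, -0.52 and -0.16, a difference of -0.20 ± 0.11 (adjusted p = 1.0). Bbs5 had -0.09, 0.33 and 0.51, against -0.06, 0.14 and 0.20, a difference of 0.16 ± 0.10 (adjusted p = 1.0). The groups overlapped for both, although 4 of the 6 treated arrays of Bbs5 lay above every saline array. Cfap43 again had the widest interval, -0.52 to 2.43.

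**Figure D4:**
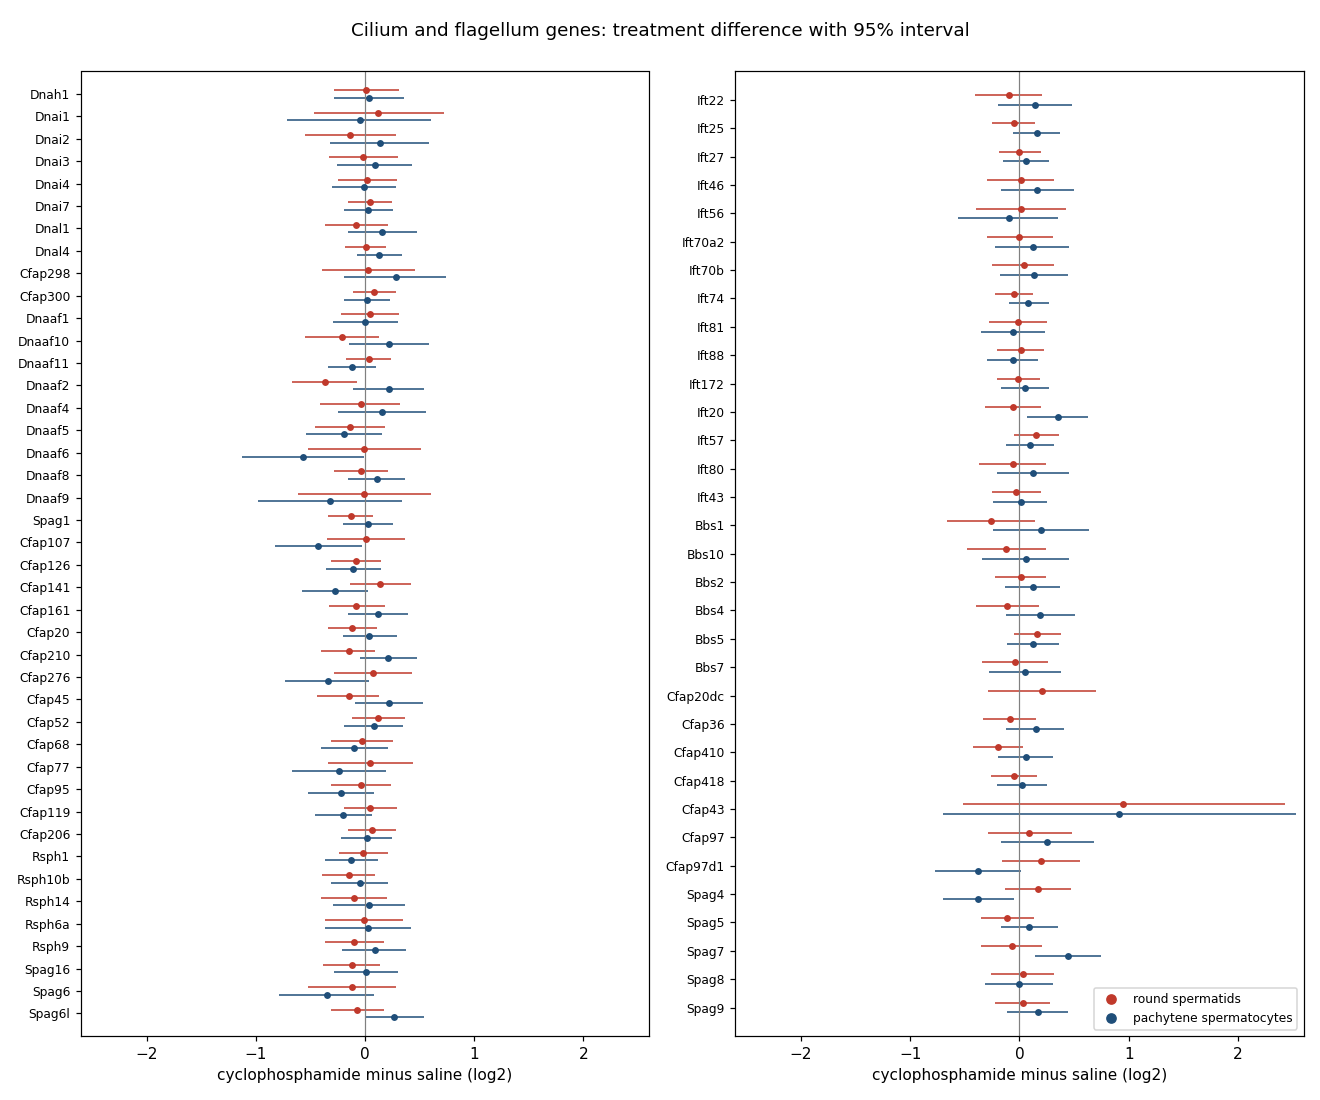
Rows are members and the x axis is the log2 difference of cyclophosphamide minus saline with its 95% interval, in round spermatids (red) and pachytene spermatocytes (blue). No member passed in either cell type, and most intervals lie within 1 log2 unit of 0, the widest being those of Cfap43.

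The difference of the treatment effects, that in round spermatids minus that in pachytene spermatocytes, passed for 0 of 75 members (0.0% of 19664 genes; smallest adjusted p of any gene 0.0586). At an unadjusted p under 0.05 there were 7 members, against 7.65% of all genes. Spag4 (0.55 ± 0.21), Cfap97d1 and Cfap20dc (0.89 ± 0.35) were on the positive side, and Dnaaf2 (-0.59 ± 0.21), Spag7 (-0.52 ± 0.20), Ift20 (-0.41 ± 0.19) and Cfap210 on the negative side. For Spag4 and Spag7 most of the size came from the pachytene arrays, with treatment differences of 0.17 and -0.07 in round spermatids and -0.38 and 0.44 in pachytene spermatocytes. For Dnaaf2 the values were -0.37 in round spermatids and 0.22 in pachytene spermatocytes. Cfap20dc was well above background on no pachytene array of either treatment, so its value there is that of a dim probe.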

How the data were processed

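Total RNA of male rat germ cells was labelled with Cy3 and hybridised to 22 one-colour Agilent arrays on 4 slides. The deposited scanner files hold each spot's processed intensity, which per the file headers Feature Extraction had background-subtracted and detrended, with no scaling between arrays. The submitters' processing notes name Feature Extraction 11.5.1.1 and the file headers 10.7.3.1. The authors' deposited value table holds log2 values, whose centring and direction are not stated; its columns followed their own arrays here, and it was tried as an alternative where treatments were compared.

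Control spots and outlier spots were left out, spots of a probe were averaged, and the array's 75th percentile was subtracted on the log2 scale. Of 30367 probes 17998 (59.3%) were named through RefSeq accessions (GRCr8), with the brightest probe kept for each gene. Tests took probes that stood well above background, by more than 0.5 of their spots, on every array of a compared group or on all but 1. Group means were fitted to all 22 arrays with limma 3.58.1 in R 4.3.3 (statmod 1.5.0 for blocks), with Benjamini-Hochberg adjustment over all tested genes at 0.05. Adjusted p-values, standard errors (±) and 95% intervals are from that fit unless a sentence says otherwise. Fold changes are powers of 2 of the fitted differences. Python 3.11.15, pandas 2.3.3 and matplotlib 3.10.9 made tables and drawings, and the fitting step was tested on simulated data.

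Arrays were taken as separate samples. The labels do not say whether a number shared between cell types within a treatment is the same animal, nor whether the 2 cyclophosphamide pachytene arrays numbered 16, which differ in the year, are from separate rats. Arrays of different cell types with a shared number correlated in their deviations from group means at -0.043 to 0.227, so numbers were not taken as pairs, and those 2 pachytene arrays at -0.228. The number of arrays limits the precision. The members, gene lists and rules were chosen with earlier results of these data known. Values by array are given for the member of each name group with the largest rise and the largest fall that passed in saline rats, and for the 3 members with the smallest p in each treatment comparison. The remaining members are accounted for by their differences. Grouping by role was made after values had been seen. Protein and probe sequences were not used here.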

Additional observations from a re-analysis of the deposited data

Results flagged for a closer look

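Among the 19 members followed array by array, in 4 groups each (76 groups of 5 or 6 arrays), 3 held an array whose gap to its nearest neighbour took up more of the group's range than Dixon's 95% limit allows, and chance alone does so in about 1 in 20 groups. In cyclophosphamide round spermatids Dnal4 of rat 27 was lowest at a level of 2.8, with the others at 3.0 to 3.09 and a gap of 0.68 of the range. Spag6l of rat 16 was highest there at 5.0, against 4.58 to 4.73, with a gap of 0.638. In saline round spermatids Rsph14 of rat 15 was highest at -0.44, against -0.88 to -0.72, with a gap of 0.629. Without that array the Rsph14 difference between the cell types of saline rats was -0.75 and still passed. Without rat 27 or without rat 16, 56 of the 58 member calls between the cell types of cyclophosphamide rats were kept.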

How the results depend on the processing

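The 10 other settings for the cell type comparisons were another background correction (normexp), quantile normalization, no filter or a stricter filter on dim probes, the slide as a block, each of slides 1 and 2 alone, the replicate block, a fit of the compared groups alone and the mean over a gene's probes. In saline rats the counts of 30 higher and 27 lower members kept within 1.5 times of these values except for 19 higher within slide 1 and 17 lower within slide 2; in cyclophosphamide rats 20 were lower within slide 1 and 20 within slide 2, against 31. Slides 1 and 2 each held 1 pachytene array of each treatment. The members' median moved in saline rats to -0.21 with quantile normalization, 0.076 with slide blocks and 0.128 on slide 2 alone, and in cyclophosphamide rats to -0.192 with quantile normalization and 0.102 within slide 1. For treatment in pachytene spermatocytes it was -0.123, 0.155 and 0.19 within slides 1, 2 and 4, and for the difference of effects 0.124 within slide 1. Spag7 turned its sign within slide 1, to -0.01 in pachytene spermatocytes and 0.08 for the difference of effects; the cause was not tested.

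Leaving out 1 array at a time gave 28 to 34 members higher and 24 to 28 lower in saline rats (median -0.102 to 0.041), and 25 to 30 and 30 to 32 in cyclophosphamide rats (median -0.077 to -0.001). The treatment medians were 0.004 to 0.115 in pachytene spermatocytes, -0.056 to 0.006 in round spermatids and -0.158 to -0.018 for their difference. The count of members that passed for treatment was 0 under every setting run, the authors' value table included. The replicate block joins arrays sharing a rat number. With it the counts were 30 higher and 27 lower in saline rats, 27 and 31 in cyclophosphamide rats and 0 for treatment. It changed no other call among the members followed array by array. Whether arrays that share a number share an animal remains unknown. Normexp on the spot medians was chosen after seeing the data, and the planned fit on mean spot signals was not run.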
